A study of Komagataella pastoris with 4 samples.

Results

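The genes described here are those that make, activate, attach or move vitamins and cofactors in the methylotrophic yeast *Pichia pastoris* (*Komagataella phaffii*). They were found by searching the protein description and the KEGG description of every row of the count table for the names of vitamins and cofactors (biotin, thiamine, riboflavin, folate, pyridoxine, pantothenate and coenzyme A, nicotinate and NAD, lipoate, ubiquinone and molybdenum). Rows whose text also named an aminotransferase, a carboxylase, a decarboxylase, a permease, pyruvate or NADH were removed. The search matched 83 of 5427 rows, the removal took out 9 of them, and 74 members were left. All 74 passed the low-count filter of at least 5 counts in at least 2 libraries, as did 5425 of the 5427 rows. Members lay on all 4 chromosomes by their locus tags, with 27, 16, 18 and 13 on chromosomes 1 to 4. Going by the annotation, 48 members make, activate or attach a vitamin or cofactor, 6 move one across a membrane, 17 have another function and 3 could not be placed. Of the 17 with another function, 10 were aminoacyl-tRNA synthetase rows, which matched only because the name of their protein fold also mentions biotin synthetases.

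Dmxr1 is a strain whose MXR1 gene, coding for a zinc finger protein that regulates transcription, was disrupted with a zeocin resistance cassette. It was compared with GS115, its parent with an intact copy of that gene. Both strains are histidine auxotrophs per the labels, and Dmxr1 also carries resistance to ZeocinTM. Cells of both were harvested after 14 h in YNBE, a minimal medium of yeast nitrogen base with ethanol as carbon source, and each strain had 2 RNA sequencing libraries made after depletion of ribosomal RNA. The study asked which genes depend on Mxr1p when ethanol is the carbon source. By its account the mutant grew poorly on ethanol, so growth and the loss of Mxr1p cannot be told apart in these values.

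Cofactors are small molecules that enzymes bind in order to work, and vitamins are the precursors that an organism must make or take up. Yeast nitrogen base supplies most B vitamins, so cells in this medium can take them up and also make several of them. *P. pastoris* is known to need biotin from the medium because it lacks early steps of biotin synthesis, while the last step, catalysed by biotin synthase, is encoded in its genome. Pyridoxal phosphate serves amino acid metabolism, folates carry single carbon units, NAD and flavins carry electrons, and ubiquinone links the dehydrogenases of the respiratory chain to its later complexes. Molybdenum cofactor synthesis is found in *P. pastoris* and is missing from *Saccharomyces cerevisiae*.

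Library totals were between 24140235 and 29402357 counts, and the lowest count of any member in any library was 132. The median absolute log2 difference between replicates was 0.17 in Dmxr1 and 0.20 in GS115 over all genes, and 0.18 and 0.19 over the members. The row of the disrupted gene itself had 206 and 258 CPM in Dmxr1, against 287 and 405 CPM in GS115 (log2 fold change -0.58, SE 0.21, adjusted p = 0.0787). Counts over a whole gene that was disrupted by an inserted cassette do not check the strain label. CPM (a gene's counts scaled to a common library size, with TMM factors for composition) are not corrected for gene length, and do not show how much RNA a cell holds.

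Differences were small in most of these genes, as in most genes tested, and leaned upward in Dmxr1. A gene was called higher or lower at an adjusted p of at most 0.05 (edgeR's quasi-likelihood test, Benjamini-Hochberg over all 5425 genes) where the fold change was also 1 or more on the log2 scale in either direction. By that rule 2 members were called higher in Dmxr1, the biotin synthase gene BIO2 and the vitamin B6 gene SNZ, which is 2.70% of the 74 members, beside 0.535% of all genes tested. Members called lower numbered 0 by edgeR and 0 by DESeq2, beside 3.26% of all genes. At an unadjusted edgeR p under 0.05, 14 of the 74 members were lower and 18 higher, beside 1006 and 731 of the 5425 genes tested. On the adjusted p without the fold criterion, which is called the adjusted p alone below, 11 members were higher (14.9%, against a background of 5.07%) and 6 were lower (8.11%, against a background of 10.5%). The number of members lower at the adjusted p alone was 2 without TMM factors and 2 with the replicate number as a block, and the block left 6 higher. Both Dmxr1 libraries lay above both GS115 libraries in 35 members, or 47.3% beside 31.1% of all genes, and below them in 21 members, or 28.4% beside 31.3%. The median log2 fold change was 0.16 over the members and 0.00 over all genes tested, and individual members ran from -0.93 to 1.59. For the 48 members that make, activate or attach a cofactor the median was 0.18, with 8 higher and 4 lower at the adjusted p alone. In 49 members the absolute log2 fold change was under 0.5, and in 30 members the larger gap between replicates of a strain exceeded the difference between strains. The same counts were not taken over all genes. The quartiles of the log2 fold change were -0.18 and 0.39 over the members, and -0.29 and 0.25 over all genes tested, so small differences were not particular to the members.

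**Figure D1:**
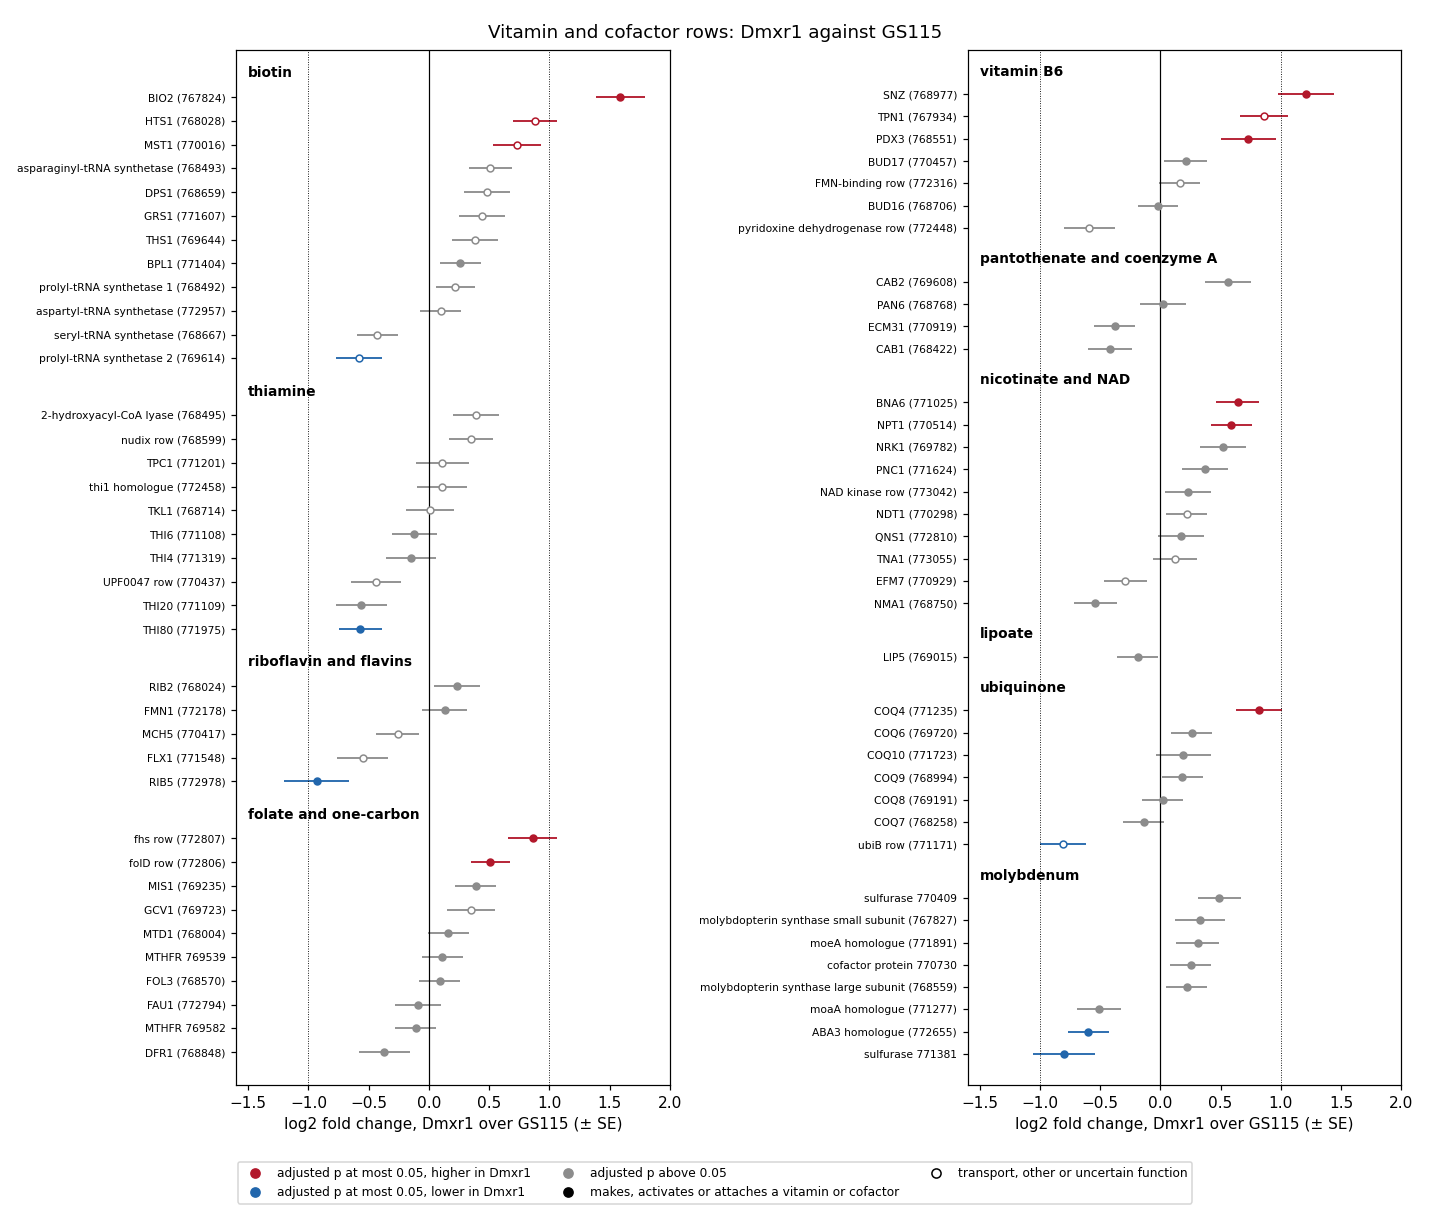
Log2 fold change (Dmxr1 over GS115, horizontal axis, bars are SE) of all 74 members by pathway, with 2 libraries per strain. Red and blue mark the 11 and 6 members past the adjusted p, filled points mark the 48 members that make, activate or attach a cofactor, and dotted lines mark an absolute log2 fold change of 1, which BIO2 and SNZ pass.

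**Figure D2:**
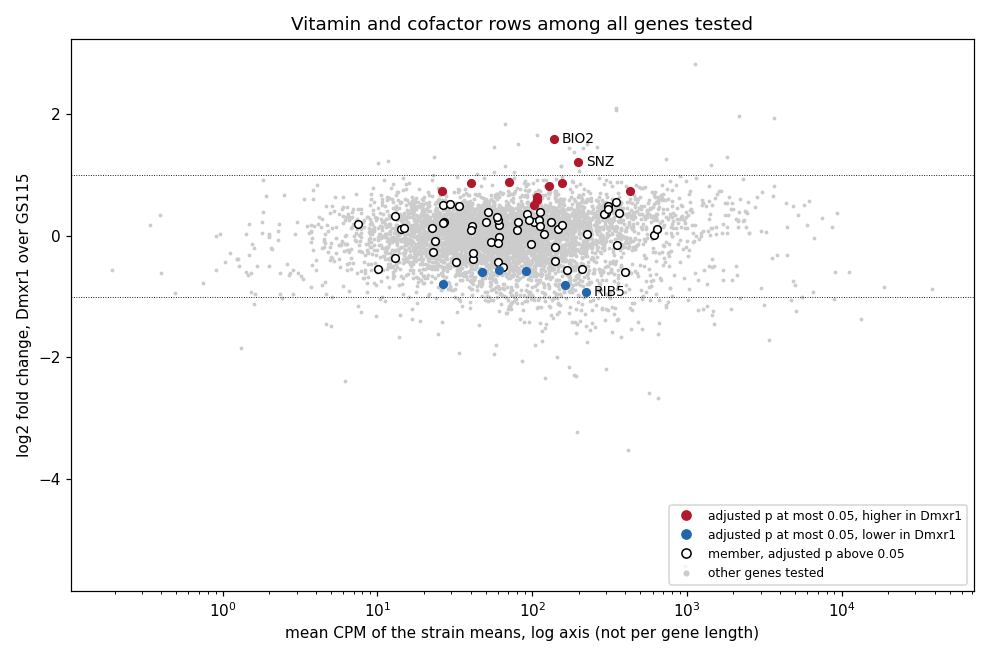
Log2 fold change (Dmxr1 over GS115, vertical axis) against mean CPM on a log axis for the 5425 genes tested, grey for other genes and larger circles for the 74 members. The members lie between -0.93 and 1.59, well inside the range of all genes, which extends to -5.42 and 2.82.

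BIO2 (ACIB2EUKG767824), biotin synthase, which converts dethiobiotin to biotin, had the highest fold change of the 74 members. It stood at 239 and 176 CPM in Dmxr1, against 77.2 and 60.7 CPM in GS115. Every Dmxr1 library was thus above every GS115 library by more than the gap between replicates. The mean was 208 ± 44.5 CPM in Dmxr1 and 68.9 ± 11.7 CPM in GS115 (SD, n = 2 each), a 3.01-fold difference (log2 fold change 1.59, SE 0.20, adjusted p = 0.000169). BIO2 was called in each of 11 alternative settings of scaling, filter, test and libraries, with log2 fold changes between 1.35 and 1.79. Tested against a log2 fold change of 1 itself rather than against 0, its adjusted p was 0.173. In that stricter test 0 members passed, and only BIO2 had an unadjusted p under 0.05. BPL1 (ACIB2EUKG771404), the ligase that attaches biotin to the enzymes that use it, had 112 and 127 CPM in Dmxr1, against 94.4 and 106 CPM in GS115, and did not pass (log2 fold change 0.26, adjusted p = 0.314). These are the only members of the biotin group whose function concerns biotin. The reads of both genes together came to 351 and 303 CPM in Dmxr1, against 172 and 167 CPM in GS115.

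The other 10 rows of that group encode aminoacyl-tRNA synthetases, which load amino acids onto their tRNAs. Of these, 8 had a log2 fold change above 0, 2 were higher and 1 was lower at the adjusted p alone, and their median was 0.41. HTS1 (ACIB2EUKG768028), the histidyl-tRNA synthetase, had 103 and 79.0 CPM in Dmxr1, against 45.2 and 53.9 CPM in GS115, with no overlap (log2 fold change 0.88, SE 0.18, adjusted p = 0.00567). Without Dmxr1 replicate 1 its log2 fold change was 0.67 and it no longer passed. MST1 (ACIB2EUKG770016), which serves threonyl-tRNA in mitochondria, had 35.8 and 29.2 CPM in Dmxr1, against 16.3 and 22.7 CPM in GS115 (log2 fold change 0.73, adjusted p = 0.0244). Its libraries did not overlap between strains, and the replicate gap was 0.29 in Dmxr1 and up to 0.48 in GS115 on the log2 scale. MST1 missed the adjusted p with the replicate block. Its log2 fold change was 0.51 without GS115 replicate 1 and 0.58 without Dmxr1 replicate 1. DPS1 (ACIB2EUKG768659), the cytoplasmic aspartyl-tRNA synthetase, had 362 and 363 CPM in Dmxr1, against 243 and 278 CPM in GS115, and did not pass (log2 fold change 0.48, adjusted p = 0.0973). A row similar to prolyl-tRNA synthetases (ACIB2EUKG769614) had 63.7 and 82.4 CPM in Dmxr1, against 121 and 97.4 CPM in GS115 (log2 fold change -0.58, adjusted p = 0.0447). This row passed the adjusted p in only 7 of 11 alternatives, and missed it with the replicate block. Its log2 fold change was -0.42 without GS115 replicate 1 and -0.41 without Dmxr1 replicate 1. With transporters and all rows of another function set aside, 51 members were left, of which 8 were higher and 4 lower at the adjusted p alone.

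The vitamin B6 pathway to pyridoxal phosphate had 3 members higher at the adjusted p alone and 0 lower among 7, and its median was 0.21. SNZ (ACIB2EUKG768977) encodes the synthase subunit of the enzyme that builds pyridoxal phosphate from sugar phosphates, and in *S. cerevisiae* genes of this family are induced in stationary phase. It had 204 and 352 CPM in Dmxr1, against 116 and 125 CPM in GS115. All Dmxr1 values were above all GS115 values, with a wide gap between the Dmxr1 replicates. The means were 278 ± 104 CPM in Dmxr1 and 120 ± 6.42 CPM in GS115 (SD, n = 2 each), and the log2 fold change was 1.21 (SE 0.23, adjusted p = 0.00323). SNZ passed the adjusted p in each of the 11 alternatives. Without Dmxr1 replicate 2 its log2 fold change was 0.76, below the fold threshold, and without Dmxr1 replicate 1 it was 1.55.

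TPN1 (ACIB2EUKG767934), which brings pyridoxine into the cell through the plasma membrane, had 42.3 and 62.0 CPM in Dmxr1, against 28.8 and 28.7 CPM in GS115. The GS115 libraries were almost equal and Dmxr1 replicate 2 was again the higher of the mutant pair. The log2 fold change was 0.86 (SE 0.20, adjusted p = 0.00888), and without Dmxr1 replicate 2 it was 0.55 and no longer passed. PDX3 (ACIB2EUKG768551), the oxidase that turns pyridoxine phosphate and pyridoxamine phosphate into the active form, had 595 and 470 CPM in Dmxr1, against 255 and 385 CPM in GS115 (log2 fold change 0.73, SE 0.23, adjusted p = 0.0394). Its libraries did not overlap, but GS115 replicate 1 stood well below GS115 replicate 2, and without it the log2 fold change was 0.46 and no longer passed. The putative pyridoxal kinases BUD16 (log2 fold change -0.02) and BUD17 (0.21) did not pass. A row described as an NAD(P)-linked oxidoreductase and assigned by KEGG to pyridoxine dehydrogenase (ACIB2EUKG772448) had 291 and 350 CPM in Dmxr1, against 553 and 411 CPM in GS115 (log2 fold change -0.59, adjusted p = 0.0703). Reads of the 4 synthesis genes summed to 889 and 911 CPM in Dmxr1, against 453 and 602 CPM in GS115.

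**Figure D3:**
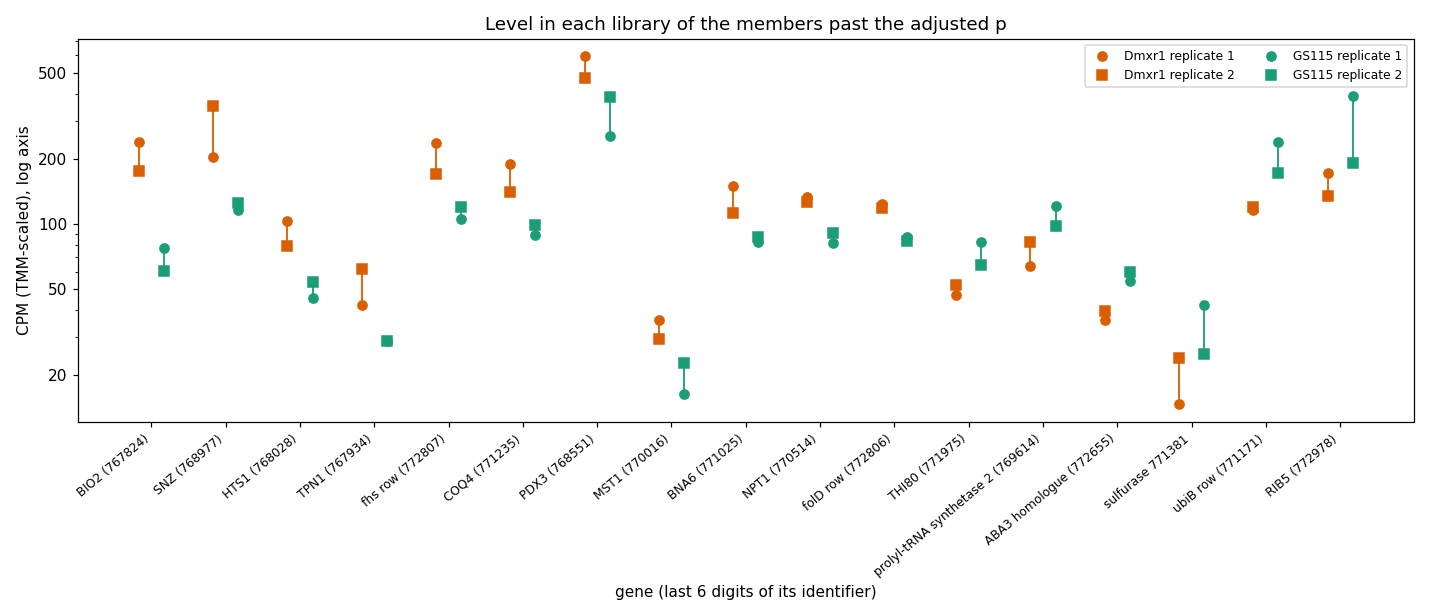
CPM on a log axis in each of the 4 libraries for the 17 members past the adjusted p, ordered by fold change, with Dmxr1 left of GS115 for each gene and a line joining the replicates of a strain. BIO2 has the widest separation, at 239 and 176 CPM in Dmxr1 against 77.2 and 60.7 CPM in GS115, and RIB5 at the right has the widest gap between replicates, at 391 and 191 CPM in GS115.

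The nicotinate and NAD group of 10 had 2 members higher and 0 lower at the adjusted p alone, a median of 0.22, and 8 members with a log2 fold change above 0. BNA6 (ACIB2EUKG771025), which makes nicotinate mononucleotide from the tryptophan breakdown product quinolinate, had 150 and 112 CPM in Dmxr1, against 81.9 and 86.9 CPM in GS115 (log2 fold change 0.64, SE 0.18, adjusted p = 0.0275). NPT1 (ACIB2EUKG770514), which makes the same nucleotide from nicotinate in the salvage route, had 133 and 126 CPM in Dmxr1, against 81.7 and 90.8 CPM in GS115 (log2 fold change 0.59, SE 0.17, adjusted p = 0.0273). Both genes at this entry point thus stood higher in every Dmxr1 library. Both missed the adjusted p with the replicate block, at 0.62 for BNA6 and 0.59 for NPT1. They also missed it without Dmxr1 replicate 1 or GS115 replicate 1, and NPT1 missed it without Dmxr1 replicate 2 as well, at 0.63. NMA1 (ACIB2EUKG768750), the adenylyltransferase that acts next, had 183 and 158 CPM in Dmxr1, against 252 and 243 CPM in GS115. Its libraries did not overlap, and it had the lowest value of the group, but it did not pass (log2 fold change -0.54, SE 0.18, adjusted p = 0.0594). PNC1 (ACIB2EUKG771624), the nicotinamidase of the salvage route, had 391 and 429 CPM in Dmxr1, against 313 and 324 CPM in GS115 (log2 fold change 0.37, adjusted p = 0.195). NRK1, QNS1 and the NAD kinase row had log2 fold changes of 0.52, 0.17 and 0.23 and did not pass. The nicotinate transporter TNA1 and the mitochondrial NAD carrier NDT1, at 0.12 and 0.22, did not pass, nor did EFM7, a protein methyltransferase described as a nicotinamide methyltransferase, at -0.29.

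Of the 10 folate and one-carbon members 2 were higher and 0 were lower at the adjusted p alone, with a median of 0.13. The pair that passed occupies neighbouring rows on chromosome 4. The row annotated as formate-tetrahydrofolate ligase (ACIB2EUKG772807), which loads formate onto tetrahydrofolate, had 237 and 169 CPM in Dmxr1, against 105 and 119 CPM in GS115 (log2 fold change 0.86, SE 0.20, adjusted p = 0.0091). The row annotated as the dehydrogenase and cyclohydrolase that interconvert the folate-bound carbon units (ACIB2EUKG772806) had 123 and 118 CPM in Dmxr1, against 86.9 and 82.9 CPM in GS115 (log2 fold change 0.51, SE 0.16, adjusted p = 0.0478). In neither row did the strains overlap. The ligase row no longer passed the adjusted p without Dmxr1 replicate 1, at 0.59, and the dehydrogenase row no longer passed it when any single one of the 4 libraries was left out, although its log2 fold change stayed between 0.47 and 0.59 over the alternatives. In *S. cerevisiae* these activities are joined in one protein, and the row for such a joined protein, MIS1 (ACIB2EUKG769235), stood at 122 and 133 CPM in Dmxr1, against 88.3 and 106 CPM in GS115, and missed the threshold (log2 fold change 0.39, adjusted p = 0.132). GCV1 (ACIB2EUKG769723), of the glycine cleavage system, had 314 and 336 CPM in Dmxr1, against 214 and 296 CPM in GS115 (log2 fold change 0.35, adjusted p = 0.251). DFR1 (ACIB2EUKG768848), dihydrofolate reductase, had 12.3 and 10.5 CPM in Dmxr1, against 16.8 and 12.7 CPM in GS115, the lowest fold change of the group (log2 fold change -0.37, adjusted p = 0.254). The other 5 members, which include both methylenetetrahydrofolate reductase rows, lay between -0.11 and 0.16.

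COQ4 (ACIB2EUKG771235), a protein of the ubiquinone synthesis complex, was higher at the adjusted p alone. It had 189 and 140 CPM in Dmxr1, against 88.5 and 98.3 CPM in GS115, and the strains did not overlap. The mean was 165 ± 34.2 CPM in Dmxr1 and 93.4 ± 6.97 CPM in GS115 (SD, n = 2 each; log2 fold change 0.82, SE 0.19, adjusted p = 0.00905). Without Dmxr1 replicate 1 the log2 fold change was 0.59 and no longer passed. The other 5 ubiquinone synthesis genes among the members, COQ6, COQ7, COQ8, COQ9 and COQ10, lay between -0.14 and 0.26 and did not pass. Ubiquinone synthesis rows that the search did not catch ran in both directions and did not pass either. They were COQ3 at -0.50 (adjusted p = 0.0518), COQ2 at -0.37, COQ5 at 0.38 and COQ1 at 0.21. A row described as ubiB, the bacterial counterpart of such a gene, but named by UniRef as a protein that associates with mitochondrial ribosomes (ACIB2EUKG771171), had 116 and 119 CPM in Dmxr1, against 240 and 172 CPM in GS115. It was lower at the adjusted p alone, with close Dmxr1 libraries and a wide gap between the GS115 libraries (log2 fold change -0.81, SE 0.19, adjusted p = 0.0119). Without GS115 replicate 1 its log2 fold change was -0.55 and it no longer passed.

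The 8 molybdenum cofactor members had 2 lower and 0 higher at the adjusted p alone and a median of 0.23, with 5 above 0 and 3 below. Both that passed are described as molybdenum cofactor sulfurases, which place the sulfur on the finished cofactor. The row assigned by KEGG to ABA3, the plant enzyme of this kind (ACIB2EUKG772655), had 35.8 and 39.3 CPM in Dmxr1, against 54.4 and 59.8 CPM in GS115 (log2 fold change -0.60, SE 0.17, adjusted p = 0.0255). Its replicates lay close together and its fold change stayed between -0.67 and -0.53 over the alternatives, though it passed the adjusted p in only 6 of 11. A sulfurase row named HxB (ACIB2EUKG771381) had 14.6 and 23.9 CPM in Dmxr1, against 42.2 and 25.0 CPM in GS115. The nearest libraries of the strains almost met, and the value depended on single libraries, at -0.38 without GS115 replicate 1 (no longer past the adjusted p) and -1.19 without Dmxr1 replicate 2 (log2 fold change with all libraries -0.80, SE 0.26, adjusted p = 0.0456). A further sulfurase row (ACIB2EUKG770409) had the highest fold change of the group, at 41.4 and 37.2 CPM in Dmxr1, against 24.8 and 31.0 CPM in GS115 (log2 fold change 0.49, adjusted p = 0.078). The row homologous to moaA (ACIB2EUKG771277), the cyclase of the opening step of the pathway, had 49.6 and 57.6 CPM in Dmxr1, against 82.9 and 69.4 CPM in GS115 (log2 fold change -0.51, adjusted p = 0.0636). Both subunits of molybdopterin synthase, the moeA homologue and a cofactor synthesis protein (ACIB2EUKG770730; 111 and 96.5 CPM in Dmxr1, against 85.4 and 88.7 CPM in GS115) lay between 0.22 and 0.33 and did not pass. Summed over the 8 members the reads came to 426 and 415 CPM in Dmxr1, against 428 and 415 CPM in GS115.

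The 4 members that make or activate thiamine had a median log2 fold change of -0.35, and 1 of them was lower at the adjusted p alone. THI80 (ACIB2EUKG771975), the pyrophosphokinase that makes the coenzyme thiamine diphosphate, had 46.7 and 52.1 CPM in Dmxr1, against 82.7 and 64.1 CPM in GS115 (log2 fold change -0.57, SE 0.18, adjusted p = 0.0428). The strains did not overlap, but THI80 passed in only 5 of 11 alternatives and had -0.38 without GS115 replicate 1. THI20 (ACIB2EUKG771109), which phosphorylates the pyrimidine precursor, had 114 and 156 CPM in Dmxr1, against 235 and 162 CPM in GS115, and did not pass (log2 fold change -0.56, SE 0.21, adjusted p = 0.0905). THI6, in the next row, and THI4, which makes the thiazole ring of the molecule, overlapped between strains at -0.12 and -0.15, and each had 0.09 in a fit without 1 library (Dmxr1 replicate 1 for THI6, GS115 replicate 1 for THI4). A pair of thiamine synthesis rows that the search did not catch, a pyrimidine phosphate kinase (ACIB2EUKG768703) and a pyrimidine synthesis enzyme (ACIB2EUKG772997), had 0.28 and 0.25 and did not pass. The row described as the regulator thi1 of thiamine-repressible genes (ACIB2EUKG772458) had 602 and 729 CPM in Dmxr1, against 555 and 681 CPM in GS115, also with overlap (log2 fold change 0.11, adjusted p = 0.752). Among enzymes that use the coenzyme, the 2-hydroxyacyl-CoA lyase row (ACIB2EUKG768495) had 62.5 and 55.8 CPM in Dmxr1, against 37.4 and 52.6 CPM in GS115 (log2 fold change 0.39, adjusted p = 0.164), and the transketolase TKL1 had 0.01. The mitochondrial carrier TPC1 had 0.11, a nudix row described as thiamine pyrophosphokinase 0.35 and a row described as a thiamine phosphate synthase (ACIB2EUKG770437) -0.44, none of them past the adjusted p.

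RIB5 (ACIB2EUKG772978), riboflavin synthase, which joins the last precursors into the vitamin, had the lowest fold change of the 74 members and was lower at the adjusted p alone. It had 171 and 134 CPM in Dmxr1, against 391 and 191 CPM in GS115. The strains did not overlap, yet the GS115 replicates differed by 1.03 on the log2 scale, more than the strains did. The mean was 153 ± 26.1 CPM in Dmxr1 and 291 ± 141 CPM in GS115 (SD, n = 2 each; log2 fold change -0.93, SE 0.27, adjusted p = 0.0285). The log2 fold change was -0.33 without GS115 replicate 1 and -0.77 without Dmxr1 replicate 2, and RIB5 passed in neither fit. Without GS115 replicate 2 it was -1.36. RIB5 was the only one of the 17 members past the adjusted p in which a replicate gap exceeded the strain difference. RIB2 (ACIB2EUKG768024), the deaminase earlier in the pathway, had 32.4 and 25.6 CPM in Dmxr1, against 26.0 and 23.6 CPM in GS115, with overlap (log2 fold change 0.23, adjusted p = 0.427). The riboflavin kinase FMN1 (0.13), the riboflavin transporter MCH5 (-0.26) and the mitochondrial FAD carrier FLX1 (-0.55, adjusted p = 0.0845) did not pass.

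None of the 4 pantothenate and coenzyme A genes passed the adjusted p, with 2 at an unadjusted p under 0.05 in the lower and 1 in the higher direction. CAB2 (ACIB2EUKG769608), which couples phosphopantothenate to cysteine, had 426 and 407 CPM in Dmxr1, against 261 and 305 CPM in GS115 (log2 fold change 0.56, SE 0.19, adjusted p = 0.0613). CAB1 (ACIB2EUKG768422), the pantothenate kinase that opens the route to coenzyme A, had 119 and 123 CPM in Dmxr1, against 177 and 147 CPM in GS115 (log2 fold change -0.42, SE 0.18, adjusted p = 0.116). Consecutive enzymes of this route thus had values of opposite sign, and neither reached the threshold. The strains did not overlap in either gene, as also held for 31.1% of all genes with Dmxr1 above and 31.3% with Dmxr1 below. Of the genes that make pantothenate, ECM31 had -0.38 (adjusted p = 0.145) and PAN6 had 0.02 (adjusted p = 0.947). LIP5 (ACIB2EUKG769015), the lipoyl synthase and the only lipoate member, had 139 and 123 CPM in Dmxr1, against 156 and 142 CPM in GS115, and did not pass (log2 fold change -0.19, adjusted p = 0.472).

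How far these results rest on single libraries differed from gene to gene. Of the 17 members past the adjusted p, BIO2 and SNZ passed it in every fit that left out 1 library, although SNZ was below the fold threshold without Dmxr1 replicate 2. The number that no longer passed the adjusted p was 13 without Dmxr1 replicate 1, 10 without GS115 replicate 1, 6 without Dmxr1 replicate 2 and 2 without GS115 replicate 2. Those that passed without Dmxr1 replicate 1 were BIO2, SNZ, TPN1 and RIB5, and those that passed without GS115 replicate 1 were BIO2, SNZ, TPN1, HTS1, COQ4, the formate-tetrahydrofolate ligase row and the ABA3 homologue. None of the 17 changed sign in those fits. Leaving out a library also changed which members passed both criteria, with 4 called higher and 3 called lower without GS115 replicate 2, 4 higher and 1 lower without Dmxr1 replicate 2, 3 higher and 1 lower without Dmxr1 replicate 1, and 2 higher and 0 lower without GS115 replicate 1. At the adjusted p alone, members higher were 3 without Dmxr1 replicate 1 and 6 without GS115 replicate 1, and 1 member was lower in each of those fits.

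**Figure D4:**
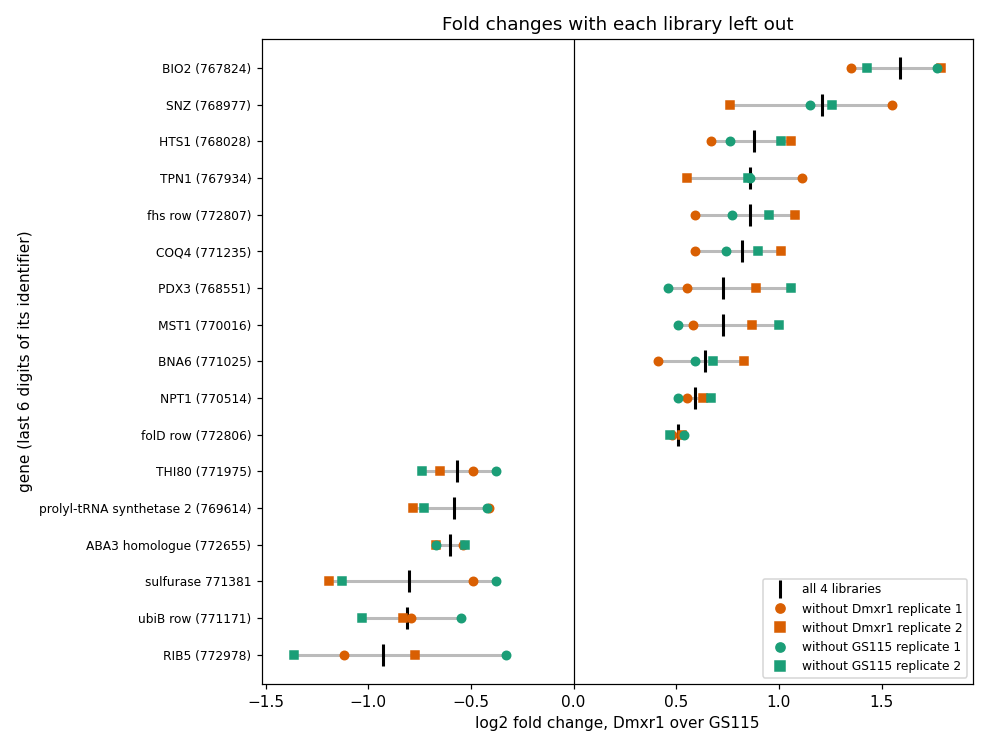
Log2 fold change (Dmxr1 over GS115, horizontal axis) of the 17 members past the adjusted p with all 4 libraries (black bar) and with each library left out (symbols). BIO2 stays between 1.35 and 1.79, SNZ falls to 0.76 without Dmxr1 replicate 2, and RIB5 reaches -0.33 without GS115 replicate 1.

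The genes beside the members on the chromosome were read off by locus tag. The strand setting of the counting is not given in the sources used here, and reads of overlapping genes cannot then be told apart. BIO2 stood alone, as none of the 6 rows within 3 places of it passed the adjusted p. SNZ stood in a run of 4 higher rows. The row before it (ACIB2EUKG768976), assigned by KEGG to pdxT, the glutaminase partner of the same synthase, had 45.6 and 59.3 CPM in Dmxr1, against 31.4 and 34.1 CPM in GS115 (log2 fold change 0.68, SE 0.18, adjusted p = 0.0206). It was not a member because its text names no vitamin or cofactor of the search, and it no longer passed without Dmxr1 replicate 2 or without GS115 replicate 1. The rows after SNZ encode a butyrobetaine dioxygenase (ACIB2EUKG768978, log2 fold change 0.69, adjusted p = 0.0425) and the ammonium transporter MEP2 (ACIB2EUKG768979, log2 fold change 2.09, adjusted p = 4.21e-05). RIB5 lay inside a run of 5 lower rows. The 4 rows around it (ACIB2EUKG772976, ACIB2EUKG772977, ACIB2EUKG772980 and ACIB2EUKG772981) had log2 fold changes of -1.08, -1.13, -1.37 and -1.11 and were all called lower. In ACIB2EUKG772980, the row next to RIB5, the libraries read 8170 and 6670 CPM in Dmxr1, against 26400 and 12100 CPM in GS115, so that GS115 replicate 1 was the highest library in both genes. Without that library the log2 fold changes of the 4 rows were -0.66, -0.63, -0.71 and -1.06. The ubiB row was followed by 3 rows that were also lower at the adjusted p, at -0.65, -1.18 and -0.92.

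**Figure D5:**
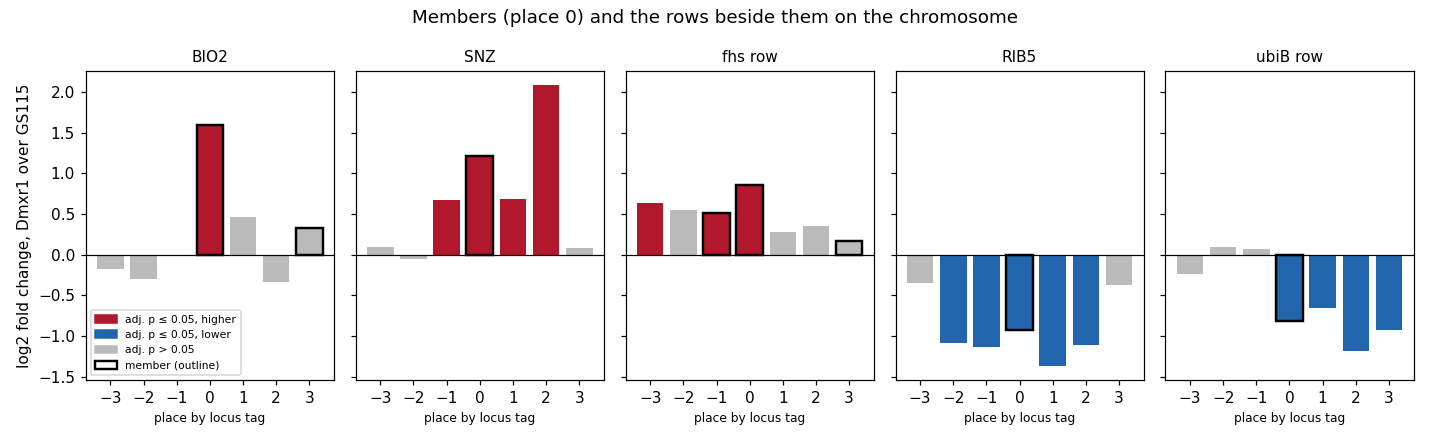
Log2 fold change (Dmxr1 over GS115, vertical axis) of 5 members at place 0 and of the rows up to 3 places to either side by locus tag, with members outlined and rows past the adjusted p in red (higher) or blue (lower). BIO2 at 1.59 has no neighbour past the adjusted p, while SNZ lies in a run of higher rows and RIB5 in a run of lower rows.

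Genes that use or import these cofactors were read from the same fit through lists that do not overlap with the membership rule except for 5 transporters and 2 thiamine diphosphate enzymes. Of 14 rows matched as vitamin transporters 3 were higher and 0 lower at the adjusted p alone, with a median of 0.30. The match also took in a row described as an oxygenase (ACIB2EUKG773056, log2 fold change 0.06) and rows described only as general transporters. The row described as Vitamin H (biotin) transporter 1 (ACIB2EUKG769298), which UniRef names a nicotinic acid permease, was called higher. It had 294 and 214 CPM in Dmxr1, against 97.2 and 89.6 CPM in GS115, with no overlap (log2 fold change 1.44, SE 0.20, adjusted p = 0.000313), and was called in each of 11 alternatives. Its substrate was not settled by the annotation. The 3 carboxylases that carry biotin all had both Dmxr1 libraries above both GS115 libraries, as did 31.1% of all genes tested. None of the 3 was called at the fold threshold. DUR1, the urea amidolyase (ACIB2EUKG772878), had 159 and 161 CPM in Dmxr1, against 83.6 and 85.4 CPM in GS115 (log2 fold change 0.92, SE 0.17, adjusted p = 0.00246). Acetyl-CoA carboxylase (ACIB2EUKG768820), which begins fatty acid synthesis, had 1310 and 1270 CPM in Dmxr1, against 655 and 736 CPM in GS115 (log2 fold change 0.89, SE 0.20, adjusted p = 0.00895), and no longer passed without Dmxr1 replicate 1. Pyruvate carboxylase (ACIB2EUKG769403) did not pass (log2 fold change 0.53, adjusted p = 0.11).

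Of 15 thiamine diphosphate enzyme rows 1 was called, the regulatory subunit of acetolactate synthase (ACIB2EUKG767985), at 54.5 and 48.8 CPM in Dmxr1, against 131 and 81.9 CPM in GS115 (log2 fold change -1.04, adjusted p = 0.00404, and -0.67 without GS115 replicate 1). That subunit does not itself carry the coenzyme in *S. cerevisiae*, and the median of the list was 0.16. Among 6 rows of lipoyl-dependent complexes the H protein of glycine cleavage (ACIB2EUKG769283) had the lowest adjusted p, at 253 and 249 CPM in Dmxr1, against 165 and 166 CPM in GS115 (log2 fold change 0.60, adjusted p = 0.0342). It missed the threshold with the replicate block and when any single library was left out, with log2 fold changes of 0.59 to 0.68 over the alternatives. The list for pyridoxal phosphate enzymes held 26 rows, many of them described by an aminotransferase-like fold. Some of these are other enzymes by KEGG, such as cystathionine gamma-lyase and cysteine desulfurase. The 26 rows had 4 higher, MET17 (a sulfhydrylase) among them, and 2 lower at the adjusted p alone, and a median of 0.22. The called row of the list, ARO9 (ACIB2EUKG772908), an aromatic aminotransferase, had 458 and 511 CPM in Dmxr1, against 1270 and 791 CPM in GS115 (log2 fold change -1.09, adjusted p = 0.00685, and -0.71 without GS115 replicate 1). No row passed among 6 further one-carbon enzymes, where the aminodeoxychorismate lyase row (ACIB2EUKG772751) had the lowest adjusted p (log2 fold change -0.62, adjusted p = 0.0558). Of the 7 rows listed for the route from tryptophan to NAD, which include a kynurenine aminotransferase described as forming kynurenic acid, 1 row passed. That row was the hydroxyanthranilate dioxygenase (ACIB2EUKG769729), which makes the precursor of quinolinate, at 166 and 157 CPM in Dmxr1, against 85.7 and 112 CPM in GS115 (log2 fold change 0.71, adjusted p = 0.0166). It did not pass without GS115 replicate 1 (0.53) or without Dmxr1 replicate 1 (0.67). Of 12 rows for the supply and use of polyprenyl diphosphates, 2 were called lower. These were geranylgeranyl diphosphate synthase (ACIB2EUKG770924), at 65.7 and 74.3 CPM in Dmxr1, against 178 and 137 CPM in GS115 (log2 fold change -1.17, adjusted p = 0.000927), and a subunit of the enzyme that attaches such lipids to Rab proteins (ACIB2EUKG771193, log2 fold change -1.06, adjusted p = 0.0074). Without GS115 replicate 1 their log2 fold changes were -0.97 and -0.59, below the fold threshold.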

How the data were processed

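Messenger RNA was measured by RNA sequencing in 2 Dmxr1 and 2 GS115 libraries, from duplicate cultures per the study's methods. The p-values rest on the spread between replicate libraries of a strain, which edgeR moderates with the spread of all genes. Per the submitters' processing notes the authors used bcl2fastq 2.19.0.316, fastp 0.19.6, Bowtie2 and featureCounts 1.6.4. What the authors deposited is a table of unnormalized read counts by gene, from alignment to *K. phaffii*. The treatment of reads with several alignments is not given in the sources used here. None of the 5427 identifiers (0) matched the reference gene table, which describes another species, so names came from each row's description, UniRef name and KEGG symbol. Neither gene lengths nor coordinates were used. No column of per-sample values (0) lacked a sample.

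Counts of 5425 genes were tested with edgeR 4.0.16 (R 4.3.3), quasi-likelihood, TMM scaling, Benjamini-Hochberg over all genes. The standard error is the log2 fold change divided by the root of its F statistic. Alternatives were other scalings, DESeq2 1.42.0, other filters, a replicate block, and each library left out.

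The members and lists were chosen with earlier results of these data known. The class and name of each member were assigned by hand after the table was seen, and 2 members (NDT1 and the FMN-binding row) were moved to another pathway group than the search gave. Named with values in every library were members called or past the adjusted p and, per pathway, the member with the highest mean CPM and those with the lowest and highest fold change. In other lists these were called rows or, with none called, the row with the lowest adjusted p. Others were named after their values were seen.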

Additional observations from a re-analysis of the deposited data

How the results depend on the processing

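All 17 members past the adjusted p kept their direction in each of 11 alternatives. With the scaling changed, the median of all genes moved by at most 0.08 on the log2 scale, and the members' median was 0.23 with upper-quartile scaling and 0.24 with library size alone, where 2 members were lower at the adjusted p alone. It was 0.18 with the removal of rows read with case (79 members). Tested against the fold threshold itself, 16 genes were lower and 5 higher, with 0 members higher. The replicate numbers share no stated origin, and the replicate 1 minus 2 differences of the strains correlated at -0.14 over genes. The replicate block gave 2 members lower and 6 higher at the adjusted p alone, and changed no other count by over 1.5 times. The crossed block, chosen after seeing the data, gave 10 lower and 14 higher. With each library left out, the lone library of a strain being assumed to vary like the other strain, genes called lower were 94 to 291 and higher 23 to 56, members called lower 0 to 3 and higher 2 to 4, members lower at the adjusted p alone 1 to 8 and higher 3 to 15, and the median 0.14 to 0.17. The 2 libraries per strain limit every estimate of spread, and changes below the fold threshold passed or failed with single libraries.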

Other observations

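Members that were lower at the adjusted p tended to have lower rows beside them. Of the 36 places within 3 rows of the 6 lower members, 16 held a row lower at the adjusted p (44.4%), and 5 of the 6 members had at least 2 such rows. Over all 567 genes lower at the adjusted p the share of places was 24.3%, and over all genes tested it was 10.5%. At least 2 such rows stood beside 254 of those 567 genes, and beside 834 of the 5425 genes tested. Beside THI80 the next 3 rows were lower (-0.73, -1.02 and -0.73), and beside the prolyl-tRNA synthetase row ACIB2EUKG769614 the 3 rows before it were called lower (-1.01, -1.28 and -1.14). The ABA3 homologue was the exception, with 0 lower rows, and the rows directly to either side of it were higher at 0.77 and 0.91. The 11 higher members had 10 of 66 places with a row higher at the adjusted p (15.2%), against 9.99% over the 275 higher genes and 5.05% over all genes tested. Places are counted once for each member, and rows next to each other can share reads where the counting ignored strand, which was not tested.

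A list of 23 rows placed in vitamin processes by gene ontology, assembled after the annotation had been seen, held 2 rows higher and 1 lower at the adjusted p alone and 0 called, with a median of 0.13. At an unadjusted p under 0.05 it held 4 higher and 5 lower, beside 731 and 1006 of the 5425 genes tested. The lower row was the dihydroxybutanone phosphate synthase of riboflavin synthesis (ACIB2EUKG771844), at 42.5 and 43.5 CPM in Dmxr1, against 90.6 and 62.5 CPM in GS115 (log2 fold change -0.83, adjusted p = 0.00959). Like RIB5 it was highest in GS115 replicate 1, and it did not pass without that library or without Dmxr1 replicate 1. The 9 rows that the removal took out of the search had a median of 0.36. Both Dmxr1 libraries lay above both GS115 libraries in 7 of the 9, as they did in 31.1% of all genes tested. The 2 rows higher at the adjusted p were the acetyl-CoA carboxylase and a row described as a uridine permease or thiamine transporter (ACIB2EUKG771318). The latter had 306 and 314 CPM in Dmxr1, against 208 and 205 CPM in GS115 (log2 fold change 0.59, adjusted p = 0.0409). The permease row did not pass with the replicate block or when any single library was left out.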
